A study of Homo sapiens with 4 samples.

Results

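Synaptic adhesion genes encode the cell surface and membrane-anchored proteins through which a neurite finds and holds its partner cell, and 37 of them were examined here for sites occupied by MEIS1 or MEIS2, a pair of transcription factors, in cultured human neural stem cells (hNSC). The 37 were the members of a list of genes built around the MDGA and netrin-G families, out of 20162 protein-coding genes of GENCODE 44 on GRCh37 (hg19). A MEIS site was assigned to a gene when its summit lay in the gene body or within 100 kb of either end, and each site was counted once. By this rule 63 of 5169 reproducible sites (1.22%) fell to the 37 genes, and none was shared by a pair of them.

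The data were ChIP-seq peak lists from untreated hNSC, a commercial line of neural stem cells grown in serum-free medium, and there was no treated, knockdown or differentiated group. MEIS-bound chromatin from 2 batches of cells processed in parallel (replicates 1 and 2) was precipitated with a mixture of an antibody to MEIS1 and MEIS2 and an antibody to MEIS1, and the protein bound at a given peak is therefore unknown, and 2 Input samples of chromatin entered only as the background of the peak calls. Replicate 1 held 36796 peaks and replicate 2 held 47449, of which 285 and 414 had a summit at the 37 genes. Read depth of the libraries is unknown, both replicate values are given below in place of a mean and SD, and with 1 cell type no test between groups was possible. Each peak carries a fold enrichment, the linear ratio of ChIP signal at the summit over the background of the peak call, and a −log10 p for that enrichment. The −log10 p of a reproducible site equalled the lower of its replicate values at 63 of 63 of these sites (tolerance 0.0001).

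MEIS1 and MEIS2 are homeodomain proteins of the TALE class that bind the consensus TGACAG, often beside PBX proteins, and act in the developing nervous system, limbs and blood. At a synapse, neurexins on the axon bind neuroligins and LRRTM proteins on the dendrite, and MDGA1 and MDGA2, held in the membrane by a GPI anchor, bind neuroligins and block the neurexin contact. Netrin-G1 and netrin-G2 (NTNG1 and NTNG2) are also GPI-anchored and bind the netrin-G ligands LRRC4C and LRRC4 respectively, while receptor phosphatases such as PTPRS pair with SLITRK and LRFN proteins.

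The sequences below are the 121 bases centred on the summits of the strongest site of 7 genes, shown because these sites lead the list, or because the gene belongs to the MDGA or netrin-G family. All are the plus strand of the GRCh37 reference, written 5′ to 3′. Capitals mark TGACAG or its complement in full, and otherwise the 5 bases TGACA or their complement TGTCA. The summit of the strongest MDGA2 site is not printed, and its 121 bases hold neither TGACAG nor TGACA.
CADM1, chr11:115155686-115155806: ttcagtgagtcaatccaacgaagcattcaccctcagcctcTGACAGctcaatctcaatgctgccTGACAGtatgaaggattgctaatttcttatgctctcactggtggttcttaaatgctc
CNTN5, chr11:99148055-99148175: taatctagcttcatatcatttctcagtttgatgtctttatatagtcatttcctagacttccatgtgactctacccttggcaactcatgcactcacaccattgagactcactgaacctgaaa
NRXN3, chr14:79949993-79950113: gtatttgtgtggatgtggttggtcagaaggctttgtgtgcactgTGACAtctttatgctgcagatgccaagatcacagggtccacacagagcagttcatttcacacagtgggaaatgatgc
LRRC4C, chr11:41020648-41020768: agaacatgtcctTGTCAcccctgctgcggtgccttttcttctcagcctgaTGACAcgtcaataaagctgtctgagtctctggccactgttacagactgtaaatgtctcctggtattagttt
LRRTM4, chr2:77856741-77856861: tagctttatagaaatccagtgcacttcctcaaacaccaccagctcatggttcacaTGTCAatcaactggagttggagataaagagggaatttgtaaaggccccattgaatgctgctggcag
MDGA1, chr6:37759266-37759386: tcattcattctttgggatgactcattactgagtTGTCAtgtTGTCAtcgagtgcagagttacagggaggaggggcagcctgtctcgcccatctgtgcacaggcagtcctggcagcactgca
NTNG1, chr1:107963331-107963451: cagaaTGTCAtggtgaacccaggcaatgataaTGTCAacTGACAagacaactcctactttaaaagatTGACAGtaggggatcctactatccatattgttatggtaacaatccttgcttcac

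Reproducible sites were found at 25 of the 37 genes, against 27.2% of all protein-coding genes under the same rule. Length has to be set beside this count, since the median body of the 37 genes was 298 kb and that of all protein-coding genes 27.2 kb, and 12 of the 37 exceed 500 kb. For each gene, the 200 other protein-coding genes nearest to it in body length were therefore taken as genes of like length, and 50.1% of the genes in these sets, which overlap, had a site. The mean site counts of the like-length sets added up to 46.4 over the 37 genes, against the 63 sites observed, of which LRRC4C alone held 11. For the longest genes the sets include much shorter ones, from 623 kb for CNTNAP2 with 2305 kb. The sum is therefore not fully matched for length. In the gene body alone, 18 of the 37 genes held a site, against 8.33% of all protein-coding genes and 38% of genes of like length.

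Measured gene by gene, 20 genes had more sites than the median of their like-length set, 12 had as many and 5 had fewer (CNTN4, CNTNAP4, CNTNAP5, CNTN3 and CLSTN2). The same comparison put 32.9% of the like-length genes above the median of the set they belonged to and 24.8% below it. The median of the 37 percentiles was 64.25. A percentile of at least 90 was reached by LRRC4C (98.0), LRRTM4 (93.75) and LRRTM2 (91.5), that is 3 of 37 genes against 8.64% of the like-length genes. LRRTM2, with a body of 6.45 kb, reached it with 1 site, outside its body, since 13.5% of its like-length genes had any site. The plot of sites per gene shows LRRC4C above the 90th percentile of its set, while most other genes lie within the 10th to 90th percentile of theirs.

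**Figure D1:**
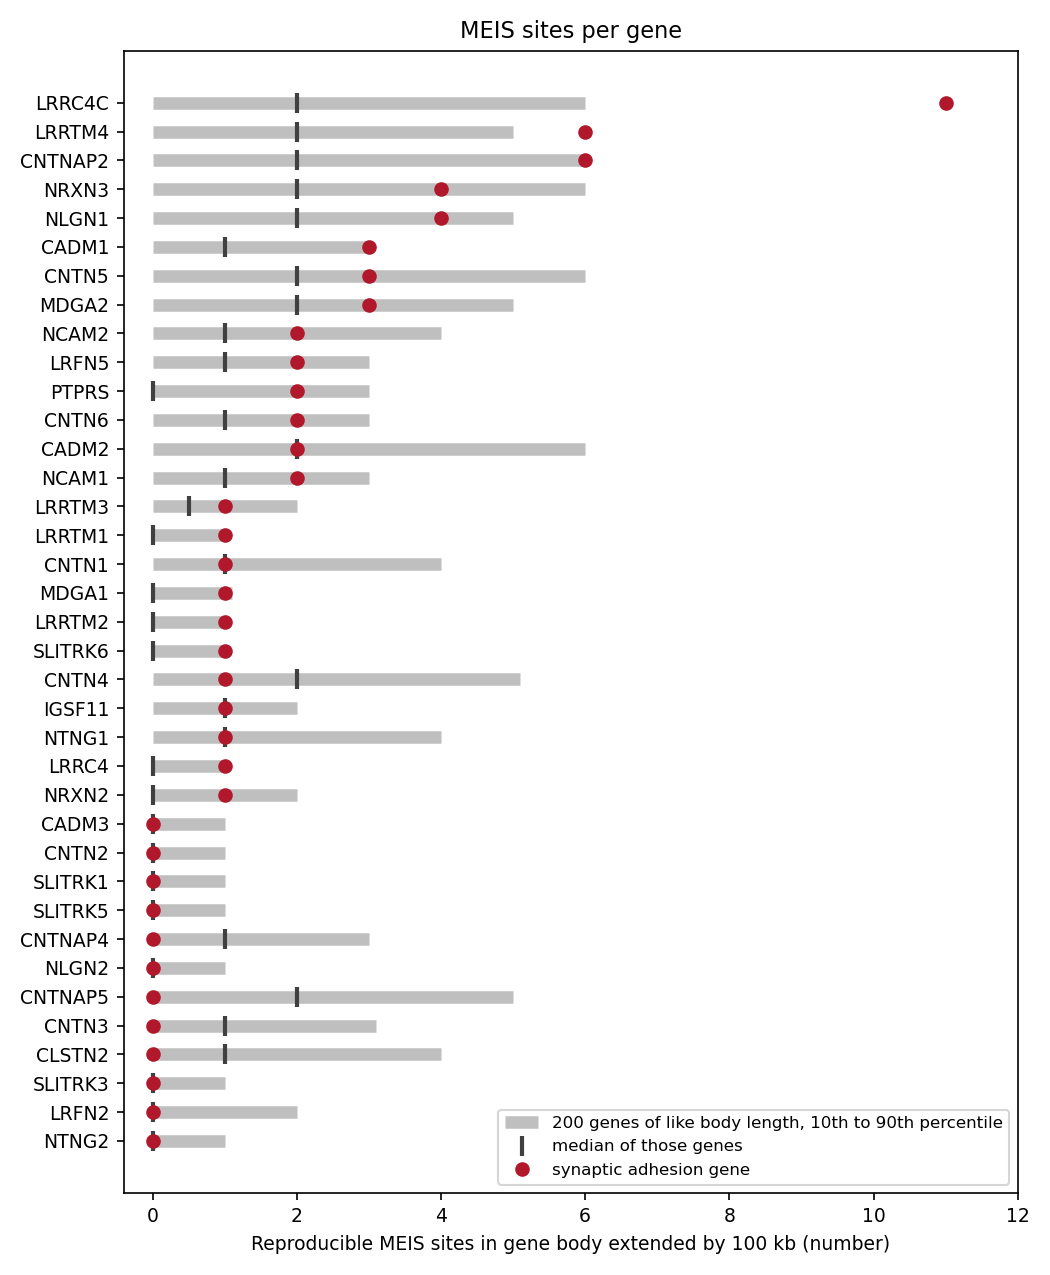
Reproducible MEIS sites (horizontal axis, number) in the body extended by 100 kb of each of the 37 genes (vertical axis). Red points are the genes, grey bars the 10th to 90th percentile of 200 protein-coding genes of like body length and black ticks their median. LRRC4C has 11 sites where its set has a median of 2, and 12 genes have none.

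Sites are given here by family, each beside the sum of the like-length means of its genes, and no difference between families was tested. The 2 netrin-G ligands held 12 sites, of which 11 were at LRRC4C, beside a sum of 3.02. The 4 LRRTM genes held 9, with at least 1 at each, beside 3.61. Contactins, which are GPI-anchored proteins of the immunoglobulin superfamily, held 7 sites at 4 of 6 genes, fewer than their sum of 9.48. The contactin-associated proteins held 6, all at CNTNAP2, beside 6.20. The 2 neurexins had 5 sites beside 3.33, and the CADM genes, whose proteins join cells through like or related partners, had 5 at 2 of 3 genes beside 4.22. MDGA1 and MDGA2 together had 4 beside 2.69, NCAM1 and NCAM2 had 4 beside 2.85, and the neuroligins had 4, all at NLGN1, beside 2.69. PTPRS had 2 beside 0.83, the LRFN genes had 2, both at LRFN5, beside 1.97, and IGSF11 had 1 beside 0.88. The 4 SLITRK genes had 1 site, at SLITRK6, beside 1.09, and the netrin-Gs had 1, at NTNG1, beside 1.70. The 12 genes with no reproducible site were CADM3, CNTN2, CNTN3, CNTNAP4, CNTNAP5, NLGN2, SLITRK1, SLITRK3, SLITRK5, LRFN2, CLSTN2 and NTNG2.

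LRRC4C (ENSG00000148948, chr11:40135753-41481323, minus strand) encodes netrin-G ligand 1, a leucine-rich repeat protein of the postsynaptic membrane. It had 9 sites in the body and 2 upstream, and only 2.50% of its 200 like-length genes had 11 or more. The strongest, in intron 1 at chr11:41020174-41021192, had −log10 p values of 227 (replicate 1) and 211 (replicate 2), with fold enrichments of 23.2 and 34.2. A site 64.9 kb from the transcription start site (TSS), also in intron 1, had a −log10 p of 253 and 159.6 and fold enrichments of 21.7 and 28.8. The other 9 sites lay between 23.5 and 50.9. Of the 9 sites in the body, 8 were in intron 1 and the other in intron 2, and the 11 sites together spanned 821 kb. Of neighbouring sites here, 3 pairs had summits less than 20 kb apart, the closest by 4.84 kb, and LRRTM4, with 1.65 kb, was the only other gene with such a gap. Neither of the 2 strongest sites held TGACAG within 500 bp around the summit, whereas the summit sequence of the first, printed above, holds TGACA on both strands.

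CADM1 (ENSG00000182985, chr11:115039938-115375675, minus strand), the gene of SynCAM1, had the strongest site of all 37 genes. It ranked 106 of the 5169 sites, at chr11:115155201-115156765, with −log10 p values of 629.6 (replicate 1) and 468 (replicate 2) and fold enrichments of 52.2 and 60.5. The site lay in intron 1 of the canonical transcript, 219 kb from its start, but 2.45 kb from the start of a shorter annotated CADM1 transcript. Its summit sequence held TGACAG 2 times, 6.50 and 17.5 bp from the summit on either side. The other 2 CADM1 sites had lower replicate values, of 64.3 and 72.5 in intron 5 and of 32.5 and 58.4 in intron 1. The weaker of these had TGACAG 0.50 bp from its summit.

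CNTN5 (ENSG00000149972, chr11:98891679-100229616), a contactin, carried the second strongest site. At chr11:99147516-99148846 in intron 1 the −log10 p reached 295 (replicate 1) and 385 (replicate 2), and the fold enrichments were 27.6 and 60.1. The 121 bases at this summit held no TGACA, and TGACAG occurred 119.5 and 121.5 bp to its sides. The 2 further sites of CNTN5, both in intron 2, had a −log10 p of 39.8 and 33.7. With 3 sites CNTN5 stood at percentile 60.75 of its like-length genes, so it was marked by the strength of a single site and not by number.

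NRXN3 (ENSG00000021645, chr14:78636716-80334634) encodes a neurexin, the presynaptic partner of neuroligins and LRRTMs. It had 4 sites, of which 3 were among the 10 strongest of the 37 genes. The first, in intron 16, had a −log10 p of 278 and 317 and fold enrichments of 26.0 and 52.1 in replicates 1 and 2. The second, in intron 14, had a −log10 p of 205 and 214, and the third, again in intron 16, of 134 and 117. The fourth, in intron 15, had 14.4 in replicate 1 and 39.9 in replicate 2. All 4 lay 816 kb or more from the start of the canonical transcript and at least 100.2 kb from any annotated NRXN3 start. None of the 3 outside intron 14 held TGACAG in the 500 bp window.

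LRRTM4 (ENSG00000176204, chr2:76974811-77820445, minus strand), a postsynaptic leucine-rich repeat protein, had 5 sites in the body and 1 upstream, a number reached or exceeded by 7% of its like-length genes. The upstream site, 36.4 kb beyond the gene at chr2:77855798-77857343, was its strongest, with a −log10 p of 128 and 125.6 and fold enrichments of 14.3 and 26.5. The 5 in the body all lay in intron 3 and were weaker, between 13.8 and 47.5. LRRTM3 (ENSG00000198739), which lies within an intron of the alpha-catenin gene CTNNA3, had 1 site in its own intron 2, with a −log10 p of 111 and 94.0. LRRTM1 had 1 site, over exon 1 in the 5′ UTR, with 46.2 and 74.6, and the single LRRTM2 site was 88.8 kb upstream, within an intron of SIL1, with 26.3 and 84.8.

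CNTNAP2 (ENSG00000174469, chr7:145813094-148118090), a neurexin-related partner of contactins, had as many sites as LRRTM4 but none that was strong. Its 6 sites had a −log10 p of 13.6 to 27.4, and the strongest ranked 2764 of 5169. All 6 lay in the 3′ part of the gene or beyond it, from 1468 to 2358 kb downstream of the TSS, with none before intron 12. With a body of 2305 kb its like-length genes ran from 623 to 2474 kb, and its percentile of 89.25 by number became 58.5 when sites were counted per Mb of window. The same change took NRXN3 from 76.0 to 52.0, while LRRC4C went from 98.0 to 96.5 and LRRTM4 from 93.75 to 93.0.

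NLGN1 (ENSG00000169760, chr3:173114074-174012162), the postsynaptic partner of neurexins at excitatory synapses, had 4 sites. The strongest, in intron 3, had a −log10 p of 74.0 and 96.8 and fold enrichments of 9.81 and 21.4. The others had lower replicate values of 34.9 in intron 3, 22.4 in intron 4 and 17.5 over exon 7. Beside these, NLGN1 held a strong pair of peaks that the reproducible list does not contain. At chr3:173630967-173632418 the fold enrichment was 14.2 in replicate 1 and 33.0 in replicate 2, and the −log10 p was 126 and 163. With a lower value of 126 it stood below 551 sites of the list and well above the lowest of the list, 12.5. In replicate 2 this was a single peak that also covered a second, weaker peak of replicate 1 (−log10 p 7.44). Across the genome 12 pairs with a −log10 p of at least 100 in both replicates were outside the list, and in 12 of these 12 a peak of either replicate overlapped more than 1 peak of the other, while this was so for 7 of 731 pairs of that strength inside it (0.958%).

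The MDGA genes differed in where their sites lay. MDGA2 (ENSG00000139915, chr14:47309295-48144808, minus strand) had 3 sites, all in intron 1, with a −log10 p in replicates 1 and 2 of 47.6 and 43.4, of 39.0 and 41.9, and of 15.6 and 34.1. At the strongest of these the summits of the replicates were 260 bp apart, against a median of 15.0 bp over the 63 sites. MDGA1 (ENSG00000112139, chr6:37598455-37667082, minus strand) had no site in its body and 1 site 92.2 kb upstream, with a −log10 p of 27.0 and 32.6 and fold enrichments of 5.30 and 9.57. The protein-coding gene with the nearest canonical TSS to this site was ZFAND3, 28.2 kb away. The MDGA1 site was close to the limit of the 100 kb window, as was the stronger NCAM2 site 95.1 kb upstream of that gene (−log10 p 56.0 and 69.8).

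The netrin-G genes had few reproducible sites. NTNG1 (ENSG00000162631, chr1:107682629-108027545) had 1 site, in intron 5 and 160 kb from the nearest annotated start of the gene, where −log10 p values were 17.25 and 20.2 and fold enrichments of 4.50 and 7.21. With 1 site NTNG1 was at the median of its like-length genes (percentile 54.5), and when overlapping peaks of both replicates with a −log10 p of 5 or more were counted instead it had 8. Its summit sequence held TGACA 4 times, including TGACAG 9.50 bp from the summit. NTNG2 (ENSG00000196358, chr9:135037445-135119913) had no site in the window, no peak of replicate 1 and 2 peaks of replicate 2. The nearest sites beyond the limit were 127.5 and 131 kb upstream of NTNG2 with a −log10 p of 27.8 and 41.4, and 114.7 kb beyond NRXN3 with 26.6.

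The remaining genes each had 1 or 2 sites. NCAM2 and LRFN5 had 2 sites each, with the stronger at 56.0 and 47.2. PTPRS, CNTN6, CADM2 and NCAM1 also had 2 each, and CNTN1, SLITRK6, CNTN4, IGSF11, LRRC4 and NRXN2 had 1, with strongest values falling from 37.8 at PTPRS to 15.7 at NRXN2.

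**Figure D2:**
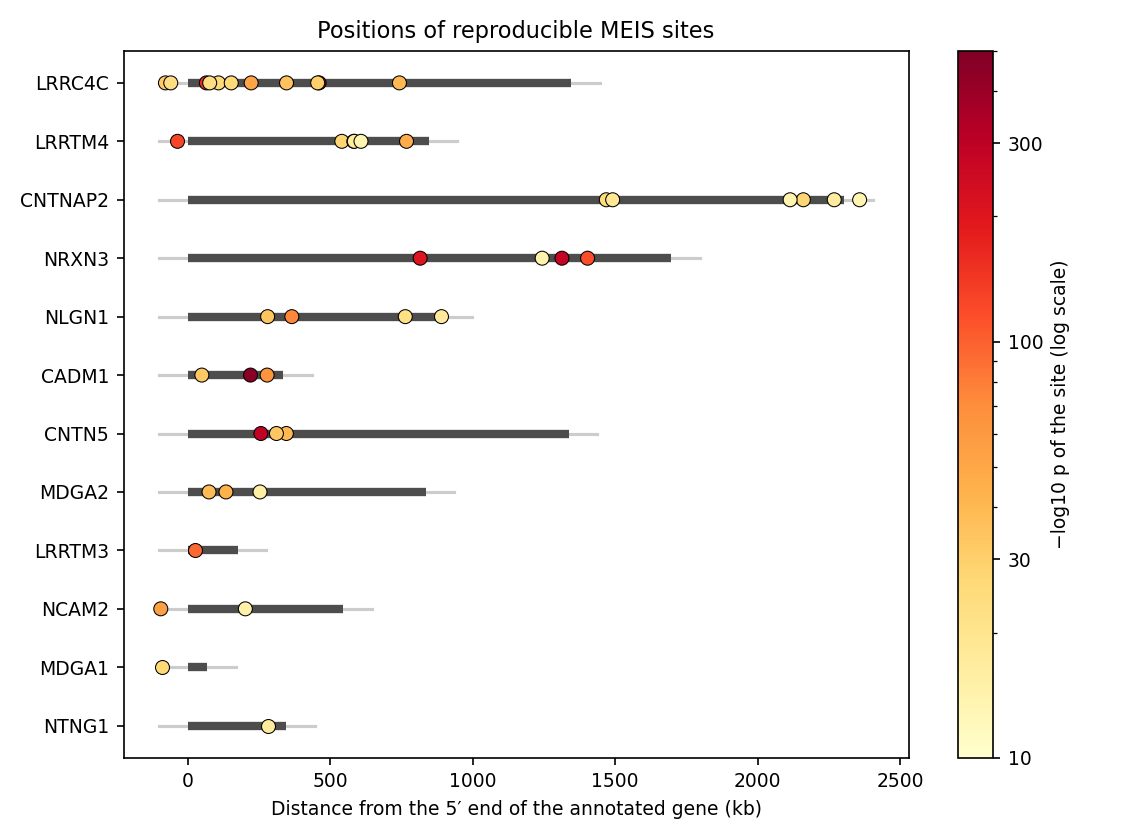
Positions of reproducible MEIS sites at the 12 genes described in full that have a site, as distance in kb from the 5′ end of the annotated gene. Dark bars are gene bodies, thin lines the 100 kb on each side, and colour gives the −log10 p of the site on a log scale; LRRC4C sites gather in the 5′ part and CNTNAP2 sites in the 3′ part.

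Most of the 63 sites lay within introns. The windows of the 37 genes covered 24.7 Mb, most of it gene body, and an intron share of all sites is not given here. Of the 63 sites 48 were in the body, 7 upstream and 8 downstream, and 44 of the 48 were in an intron and 2 in an exon of the canonical transcript. At 45 of the 63 sites the nearest canonical TSS of a protein-coding gene was that of the gene the site was assigned to. A site inside a long body can be nearer to the TSS of another gene. Counted among the same 63, 6 sites also lay within a gene outside the list, namely CTNNA3, CTNNA2, SIL1, KDM4B, SND1 and SLC22A11. Within 1 kb of an annotated TSS of their own gene were 3 sites, at LRRTM1, CNTN6 and NCAM1. That is 3 of 37 genes, against 2.26% of all protein-coding genes, a background not matched for length. The CNTN6 site had a −log10 p of 34.0 and 40.7 and the NCAM1 site of 25.3 and 15.8.

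The strength of the sites was near that of the list as a whole. The median −log10 p was 27.4 over the 63 sites and 29.3 over all 5169, the median width 993 and 1086 bp, and the median GC content 40.0% and 42.0%. Among the 500 strongest sites of the genome were 6 of the 63 (9.52%), against 9.67% of all sites. Fold enrichment was higher in replicate 2 at 63 of 63 sites, and at 97.4% of all sites, with a median ratio of replicate 2 to replicate 1 of 1.89 here and 1.80 overall. The −log10 p followed this less uniformly and was higher in replicate 1 at 21 of the 63 sites. Its median over the 63 was 31.9 in replicate 1 and 39.7 in replicate 2. The methods name alternative bead washes without saying which replicate received which, and their part in this was not tested.

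Replicate values lay within a factor of 1.5 at 41 of the 63 sites. Spearman's rho of the −log10 p between replicates was 0.683 over the 63 sites and 0.779 over all sites, given as a description since sites of a library are not independent samples. The sites that differed most were weak in replicate 1. A CNTNAP2 site in intron 12 had −log10 p values of 18.9 (replicate 1) and 99.9 (replicate 2), and another in the same intron had 24.7 and 75.7. The LRRTM2 site and an LRRTM4 site (27.5 and 76.5) showed the same order, so a high value at these 4 sites is seen in replicate 2 alone.

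**Figure D3:**
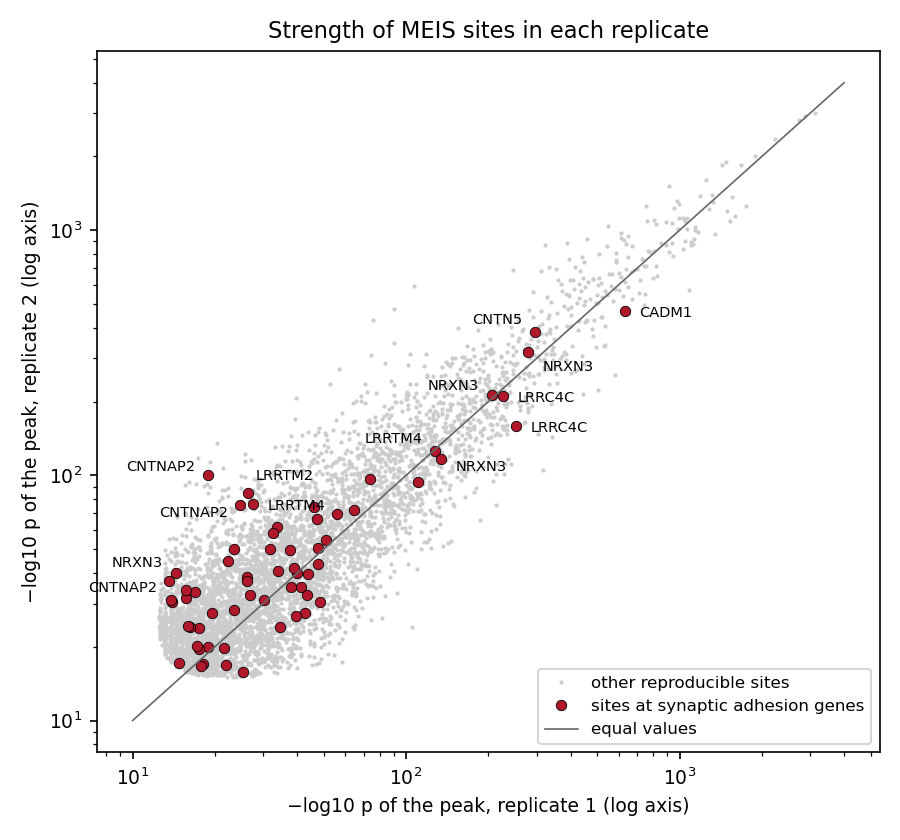
The −log10 p of each reproducible site in replicate 1 (horizontal, log axis) and replicate 2 (vertical, log axis). Red points are the 63 sites at synaptic adhesion genes, grey points all others and the line marks equal values; the 8 strongest sites, led by CADM1, lie near the line, and 6 labelled weaker ones lie well above it.

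The MEIS consensus TGACAG, searched on both strands, occurred within the 500 bp centred on the summit at 38 of the 63 sites (60.3%, Wilson 95% interval 48.0 to 71.5%). This was near the 58.3% of all sites. Of 46 occurrences 26 were within 50 bp of the summit (56.5%), compared with 55.1% over all sites. The composite of PBX and MEIS half-sites, TGAT or TGAG directly before TGACAG, was present at 5 of the 63 (7.94%, interval 3.44 to 17.3%), against 4.93% of all sites, and every composite is also counted as TGACAG. The TEAD letters ACATTCC were found at 17.5% of the 63 and 15.8% of all sites. The SOX letters ACAATGG or ACAAAGG were at 28.6 and 29.6%, and the homeodomain letters TAATTA, bound by LHX proteins among others, at 23.8 and 18.2%. All 5 intervals for the 63 sites contained the share of all sites.

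The sites with the composite were at MDGA2, PTPRS, LRRC4, NCAM1 and LRRTM4, and it lay 2.50 bp from the summit at LRRTM4. The sequences of the MDGA2, LRRTM4 and NCAM1 composites are shown here, since they belong to an MDGA gene, to the composite nearest a summit among the genes named in full, and to a site at a TSS. Each is on the strand that reads TGACAG, which is minus for MDGA2 and NCAM1, with the composite in capitals.
MDGA2, chr14:48011109-48011178: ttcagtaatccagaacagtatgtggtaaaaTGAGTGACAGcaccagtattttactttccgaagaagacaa
LRRTM4, chr2:77212576-77212645: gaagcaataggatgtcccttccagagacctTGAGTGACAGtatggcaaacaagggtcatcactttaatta
NCAM1, chr11:112832127-112832156: gatcggagaaTGAGTGACAGtcccagcctc

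Several of the strongest sites held only the first 5 bases of the consensus near the summit. In the 121 bases around the summit, TGACAG was present at 1 of the 10 strongest sites of the 37 genes, that of CADM1, while TGACA with any following base was present at 8 of the 10. In the 500 bp window TGACAG was present at 6 of these 10 (60%), beside the 60.3% of the 63 sites. Over the 63 sites TGACA was found in the 121 bases at 42 (66.7%, interval 54.4 to 77.1%) and TGACAG at 23 (36.5%). Over all sites the shares were 72.8 and 41.0%, and in windows of the same length 5 kb to either side of all sites they were 24.4 and 7.76%. Of the 40 sites here with no TGACAG in the 121 bases, 19 held TGACA there (47.5%), against 53.9% of such sites in the whole list. With T as the following base, TGACAT was found at 16 of the 63 (25.4%), at 21.6% of all sites and in 6.91% of the windows to the sides. These shorter letters were chosen after the sequences of the strongest sites had been seen, and a match is a description of the letters present.

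Peaks found in both replicates but not in the reproducible list added 96 pairs at the 37 genes, of which 47 held TGACAG (49.0%). The NLGN1 pair above was the strongest of them, and 8 of the 96 reached the lowest −log10 p of the list in both replicates. With these, 34 genes had a site or a pair, and 9 of the 12 genes without a site had a pair. Neither was found at CNTNAP4, LRFN2 and NTNG2. In number of pairs, 14 of the 37 genes were above the median of their like-length set. The share of like-length genes with a pair is not given here. NLGN2, a neuroligin of inhibitory synapses with a body of 15.0 kb, had 6 pairs, which put it at percentile 98.75 of its like-length genes for pairs. All 6 were weak, with a lower −log10 p between 3.61 and 9.30, and 1 of them held TGACAG. SLITRK1 had 4 pairs (percentile 95) and NTNG1 had 7 (percentile 91.25). All of the NTNG1 pairs but 1 held TGACAG, and the pair 3.55 kb from a start of NTNG1 had −log10 p values of 11.9 (replicate 1) and 73.3 (replicate 2).

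Some pairs lay at transcription starts. Within 1 kb of an annotated TSS of their own gene, pairs were found at 7 of the 37 genes (CADM1, LRRTM3, CNTN2, SLITRK5, NTNG1, SLITRK6 and SLITRK1). The background was 11% of all protein-coding genes, not matched for length. None of these 7 genes had a reproducible site within that distance. The pair at the start of LRRTM3 had fold enrichments of 3.27 and 4.65, and that at NTNG1 of 2.78 and 4.32. Peaks of a single replicate were the most numerous class, with 126 in replicate 1 and 256 in replicate 2.

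**Figure D4:**
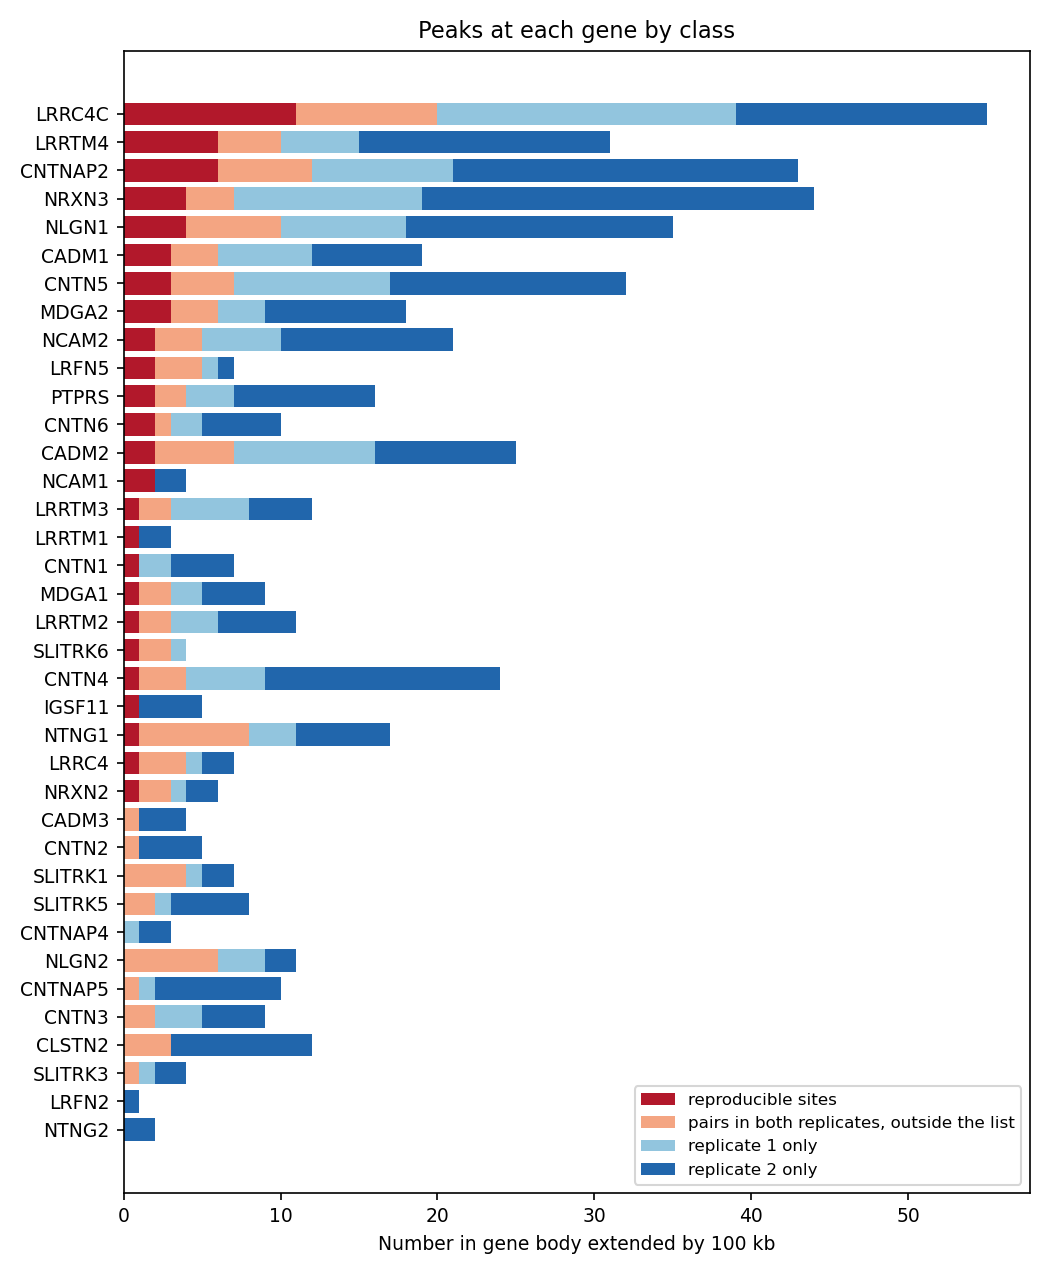
Number of peaks in the body extended by 100 kb of each gene, by class: reproducible sites, pairs in both replicates outside the reproducible list, and peaks of replicate 1 or of replicate 2 alone. Peaks of replicate 2 alone total 256 and are the most frequent class; pairs are most numerous at LRRC4C (9) and NTNG1 (7), followed by CNTNAP2, NLGN1 and NLGN2 (6 each).

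A second list of 35 genes of synaptic adhesion, among them cerebellins and L1 family members, gave lower values. A site was found at 11 of the 35, against 42.8% of their like-length genes, with 21 sites in all. Of the 35 genes 6 were above the median of their set, against 30.8% of the like-length genes, while 22 were at it and 7 below. The median percentile was 39.5, compared with 64.25 for the 37. The genes of the second list were shorter, with a median body of 102 kb against 298 kb. A short gene without a site shares its count with most of its set and takes a percentile near 39.5 through these ties. NRCAM had 4 sites and SDK1 had 3. The difference between the lists was not tested, since both were drawn up with earlier results of these data known.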

How the data were processed

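Peaks were analysed as the authors deposited them. Per the labels and the study's methods, 36 bp read pairs were trimmed with cutadapt 1.16, aligned to GRCh37 with bowtie2 2.3.0, filtered for mapping quality (30 or more, SAMtools 1.2) and freed of duplicates with Picard 2.15.0. Peaks were called by the authors with MACS2 (version not given in the sources used here) at p 0.01 against Input in each replicate, and IDR 2.0.3 gave the reproducible sites, which all had an IDR of 0.01 or less. The deposited peak lists give fold enrichment as a linear ratio and −log10 p and q per replicate. The deposited list of sites gives −log10 p, a score scaled by the authors and a −log10 IDR. Its 8 columns of values per replicate were not used, and the values printed were those of the strongest overlapping peak in each replicate.

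Gene bodies came from GENCODE 44 lifted to GRCh37. Peaks of both replicates were paired by an overlap of at least 1 bp. Percentiles were mid-rank percentiles among 200 genes of like length. Motifs were read from the reference in Python 3.11.15 with pysam 0.24.0, and the counting was tested on simulated data. Wilson intervals have 95% confidence and cover counting error only. The members, the second list, the motifs and the windows were chosen with earlier results of these data known. Described in full were the 8 genes with most sites, the 8 with the strongest site, and the MDGA and NTNG genes. Alternatives were other windows around genes and summits, other thresholds on IDR and −log10 p, and each replicate alone. For Input there were no separate peak values. Values of some single genes of the second list are not reported here.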

Additional observations from a re-analysis of the deposited data

How the results depend on the processing

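The counts depended on the window and threshold. The 63 sites became 109 with 500 kb on each side, 40 at an IDR of 0.001 or less, and 127 when overlapping peaks of both replicates were counted instead, each at 5 or more on the −log10 p scale. Genes above the like-length median, 20 of 37 in the main setting, were 15 in the body alone, 14 with 50 kb and 16 with 500 kb. They were 17 at an IDR of 0.001 or less, 21 with the overlapping peaks and 22 by sites per Mb. The share of like-length genes above their own median was computed for the main setting only. The TGACAG share was 38.1% in 200 bp and 82.5% over the whole site. Pairs outside the list were 62 in the body alone and 236 with 500 kb, and 21 genes of the second list had a site with 500 kb. Each replicate alone was cut to its 5169 strongest peaks, the number in the list, so similar totals were partly fixed by this choice. With these peaks in place of the list, the sites ranged from 60 to 65 and genes with a site from 25 to 26. Genes above the like-length median ranged from 18 to 19, the TGACAG share from 58.5 to 65.0% and genes of the second list from 9 to 13. Uncut, replicates 1 and 2 had 285 and 414 peaks at the 37 genes. Without replicate 1, NTNG1 had 2 sites and NCAM2 had 1. MDGA1 had 0 sites with 50 kb and 2 with 500 kb. NTNG1 had 0 at an IDR of 0.001 or less, 3 with 500 kb and 8 with overlapping peaks at 5 or more, and NTNG2 had 7 with 500 kb, so the low netrin-G counts hold for the reproducible list and the 100 kb window. Of 104 values for single genes 25 moved by over 1.5 times, 16 of them upward. Causes were not tested. No paired analysis was possible because Input has no separate measurements beyond the peak calls. Unknown read depth limits comparison of fold enrichment between replicates.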
